A study of Mus musculus with 12 samples.

Results

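The 36 genes described here encode the unfolded protein response of the endoplasmic reticulum and the integrated stress response. They were taken by gene symbol from a list drawn up with earlier results of these data known, and all 36 were found among the 37187 genes of the deposited table. Messenger RNA was measured in sorted mouse bone marrow cells that lacked lineage markers and carried Sca-1 and c-Kit (LSK cells), a population of blood stem cells and early, still multipotent progenitors. There were 12 libraries, 3 from each of 4 genotypes: dKO, in which Tet2 and Traf6 are both knocked out, Tet2 KO, Traf6 KO and WT. The Tet2 protein is a dioxygenase that starts the removal of DNA methylation, and the Traf6 protein is a ubiquitin ligase in signalling from Toll-like and interleukin-1 receptors. The series places Traf6 in acute myeloid leukaemia and its relation to the transcription factor MYC, and names no question for the stress response. The labels give the genotypes alone: the deleted exons, any promoter or recombinase, the strain, the age of the mice and whether libraries came from separate animals are not stated. The p-values below therefore measure the spread between libraries, which may be technical. No treatment is recorded for any group.

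The unfolded protein response has 3 sensors in the membrane of the endoplasmic reticulum (ER), encoded by Ern1 (IRE1α), Eif2ak3 (PERK) and Atf6. IRE1α splices the mRNA of Xbp1 into a form that encodes an active transcription factor, ATF6 is cut to release another, and PERK phosphorylates the translation initiation factor eIF2α. Phosphorylated eIF2α slows protein synthesis while favouring translation of Atf4. Kinases that sense amino acid shortage, haem shortage or viral RNA act on the same factor, so ATF4 and its targets, among them Ddit3 (CHOP), Trib3, Asns and amino acid transporters, are shared by several stresses and together form the integrated stress response. Haematopoietic stem cells are known to make protein slowly and to be sensitive to misfolded protein, and stress of this kind can steer them to survival or death. Splicing of Xbp1, cleavage of ATF6, phosphorylation and translation were not measured: the table holds mRNA abundance per gene.

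The promoters of 12 of the genes hold a motif through which these factors are known to act. The stretches around the matches are printed because the genes that share a motif were not all called alike as deposited (below). The window was 250 bases before the annotated start, from RefSeq on GRCm38.p6. It was available for 32 of the 36 genes and for 32851 promoters in all. 4 motifs were searched on both strands: the ER stress element ERSE (CCAAT, 9 bases of any kind, then CCACG), bound by ATF6 and XBP1 with the factor NF-Y, its relative ERSE-II (ATTGG, 1 base of any kind, then CCACG), an XBP1 element (TGACGTGG) and the C/EBP-ATF element bound by ATF4 (TGATGNAAN). The ERSE was in 6 of the 32 promoters and in 37 of all 32851 (0.113%). The ERSE-II was in 1, that of Herpud1, and in 10 of all promoters (0.0304%). The C/EBP-ATF element was in 6, and in 1129 of all promoters (3.44%), while the XBP1 element was in 0 of the 32 and in 185 of all (0.563%). A match is a run of letters and was not tested as a binding site. The stretches run 5′ to 3′ on the gene's own strand, with the motif in capitals and 12 bases on each side. The capitals mark the ERSE in the first 6.
Hspa5, chr2:34772013-34772055, plus strand: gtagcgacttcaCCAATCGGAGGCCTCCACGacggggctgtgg
Calr, chr8:84847063-84847105, minus strand: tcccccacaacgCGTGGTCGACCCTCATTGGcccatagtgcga
Canx, chr11:50325788-50325830, minus strand: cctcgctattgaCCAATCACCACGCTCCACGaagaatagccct
Creld2, chr15:88819508-88819550, plus strand: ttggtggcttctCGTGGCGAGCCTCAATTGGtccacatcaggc
Pdia6, chr12:17266479-17266521, plus strand: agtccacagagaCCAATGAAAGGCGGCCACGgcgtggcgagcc
Syvn1, chr19:6046520-6046562, plus strand: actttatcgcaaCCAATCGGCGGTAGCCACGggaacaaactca
The capitals mark the C/EBP-ATF element in the next 6 (in 2 copies in Slc7a11), followed in Herpud1 by the ERSE-II.
Asns, chr6:7693212-7693244, minus strand: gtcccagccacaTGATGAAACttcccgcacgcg
Atf3, chr1:191183424-191183456, minus strand: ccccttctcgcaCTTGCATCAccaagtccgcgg
Nupr1, chr7:126625561-126625593, minus strand: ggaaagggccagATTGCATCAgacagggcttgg
Chac1, chr2:119351036-119351068, plus strand: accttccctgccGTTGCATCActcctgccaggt
Slc7a11, chr3:50443641-50443691, minus strand: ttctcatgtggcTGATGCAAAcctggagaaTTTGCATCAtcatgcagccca
Herpud1, chr8:94386304-94386399, plus strand: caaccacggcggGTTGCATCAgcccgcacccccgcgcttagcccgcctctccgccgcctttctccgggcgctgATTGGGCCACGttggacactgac

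The libraries held 22169673 to 53921402 recovered reads, and a deposited value is reads divided by a size factor, called normalised reads below. The Tet2 and Traf6 messages, counted over whole genes, did not follow every label. Tet2 was at 668, 403 and 486 in the libraries labelled Tet2 KO, against 525, 783 and 739.6 in WT, and Traf6 was at 2474, 854 and 568 in those labelled Traf6 KO, against 1935, 3006 and 2957 in WT. The libraries labelled Tet2 KO replicate 1 and Traf6 KO replicate 1 thus lay inside the WT range of their own target. The dKO libraries lay below WT for both genes, at 326, 197 and 261 for Tet2 and 799, 1313 and 967 for Traf6. The X-linked Xist was at 990.3 to 3826 in every library of either single knockout and at most 17.0 in dKO and WT, and the library labelled Traf6 KO replicate 1 also held 1524 of the Y-linked Eif2s3y. Genotype and sex therefore cannot be told apart in any comparison except dKO against WT. Of the markers of the sorted cells, Kit was at 11935, 4099 and 4105 in dKO libraries, against 44484, 47837 and 47804 in WT, while Cd34 and Flt3 were present in every library. Of the 7 T and NK cell markers, Cd3e was at 0 in all libraries, and Nkg7 was at 7361, 10721 and 49423 in dKO, against 4565, 3418 and 3889 in WT. The 6 markers of neutrophil and monocyte progenitors summed to 123925 to 202566 in dKO, 47383 to 102596 in Tet2 KO, 18291 to 120731 in Traf6 KO and 15072 to 27539 in WT, led by Mpo. The erythroid markers summed to 14985 to 33119 in dKO, 6984 to 67538 in Tet2 KO, 3246 to 10626 in Traf6 KO and 1718 to 2899 in WT. The mast cell and basophil markers summed to 5985 to 10448 in dKO, against 1355 to 2117 in WT, the macrophage markers to 1795 to 6529 in dKO, against 566 to 679 in WT, and the B cell markers to 1721 to 7694 in dKO, against 997 to 1545 in WT. Of the plasma cell markers, immunoglobulin kappa (Igkc) was at 588, 1673 and 28286 in dKO, 1688, 12259 and 2723 in Tet2 KO, 3578, 993 and 7722 in Traf6 KO and 1286, 1483 and 1039 in WT, and Sdc1 at 218, 219 and 323 in dKO, against 351, 252 and 394 in WT. The part of such cells in the results was not tested. In bulk RNA, fewer cells of a type and less RNA per cell cannot be told apart. The dKO libraries also stood apart by gene length. The rank correlation of each gene's change with its transcript length was -0.52, -0.59 and -0.60 in the 3 dKO libraries and -0.40 to 0.29 in the other 9. Normalised reads summed to 39973892 in dKO replicate 3, against 25557760 to 28916082 in the remaining libraries. Changes in dKO against WT, except those of the barely detected Atf3 and Slc7a11, are therefore given a second time, after a trend on length and GC content had been taken out.

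In dKO against WT, 11 of the 35 genes with enough reads to test rose and 8 fell (limma, Benjamini-Hochberg adjusted p under 0.05). Over all 14045 tested genes, 21.9% were called higher and 26.5% lower, so the members' shares of 31.4% and 22.9% were read against a large background. The genes that rose were Atf4 and its phosphatase target Ppp1r15a, the serine and folate enzymes Phgdh and Shmt2, the transporter subunit Slc3a2, and 6 ER folding genes, Sdf2l1, Manf, Creld2, Pdia6, Pdia3 and Calr. The genes that fell were all 3 sensors, Ern1, Eif2ak3 and Atf6, together with Sesn2, Slc7a5, the chaperone Hyou1 and the degradation genes Sel1l and Syvn1. The median log2 change was 0.37 over the 35 members and -0.09 over all tested genes. With libraries scaled to equal totals instead, 6 members were higher and 9 lower (17.1% and 25.7%), against 16.3% and 29.7% of all genes, and the median of all genes was -0.34. After removal of that trend, 8 members were called higher and 3 lower, against 15.9% and 13.3% of 13677 genes, and the members' median was 0.05, against -0.03 over all genes. The calls found both ways were Atf4, Ppp1r15a, Slc3a2, Sdf2l1, Manf, Pdia6 and Pdia3 on the higher side and Ern1, Eif2ak3 and Sesn2 on the lower. In 13 members every dKO library was above every WT library, against 27.9% of all genes, and in 7 below, against 30.5%. The heat map shows all tested members by library, grouped by role. The 36th gene, Chac1, a glutathione-degrading enzyme and ATF4 target, was not tested: it was at 6.57, 0 and 0 in dKO, 0, 10.6 and 0 in Tet2 KO, 0, 0 and 0 in Traf6 KO and 0, 3.43 and 11.5 in WT.

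**Figure D1:**
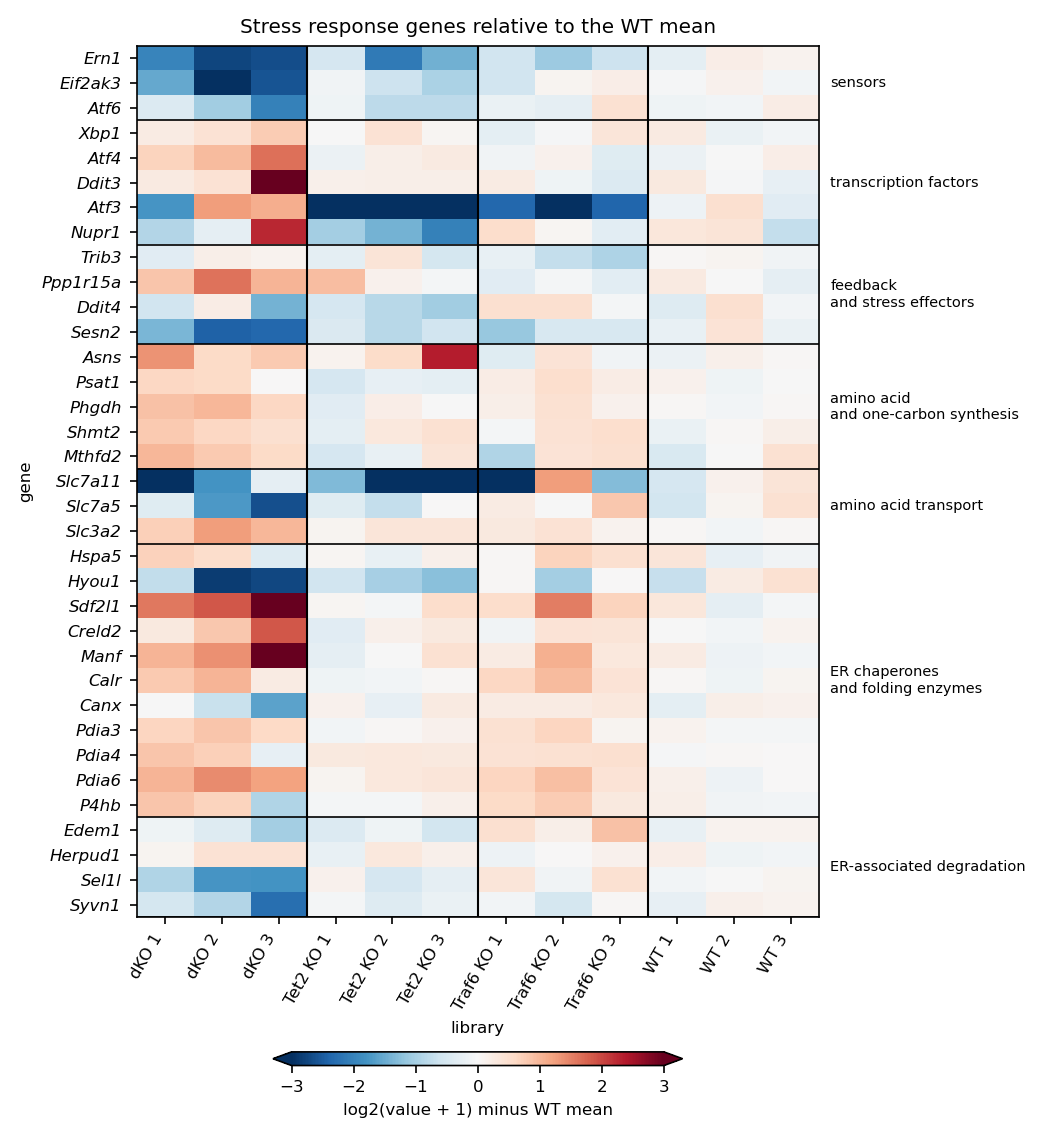
Rows are the 35 tested genes, grouped by role, and columns are the 12 libraries, dKO at the left and WT at the right. Colour is log2(normalised reads + 1) minus the mean of the 3 WT libraries, limited to 3 either way. The sensors Ern1 and Eif2ak3 are blue in all 3 dKO libraries and Atf4, Sdf2l1, Manf and Pdia6 are red in all 3, with the deepest red for Ddit3, Sdf2l1 and Manf in dKO replicate 3.

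All 3 stress sensors fell in dKO, as did 26.5% of all tested genes. Ern1, the IRE1α kinase and ribonuclease, was at 418, 245 and 263 normalised reads in dKO libraries, against 1343, 1898 and 1781 in WT, a log2 change of -2.46 ± 0.38 (SE; limma adjusted p = 0.000563). Every dKO library was below every WT library, and Ern1 with the trend removed was still lower, at -0.91 ± 0.24 (SE; limma adjusted p = 0.0129). Eif2ak3, the PERK kinase, was at 438, 136 and 211 in dKO, against 1235, 1376 and 1196 in WT. Its groups did not overlap either, with a change of -2.44 ± 0.39 (SE; limma adjusted p = 0.000709), and of -1.50 ± 0.32 (SE; limma adjusted p = 0.00487) with the trend removed. Atf6, the membrane-bound transcription factor, was at 1272, 814 and 413 in dKO and 1543, 1583 and 1961 in WT, a change of -1.16 ± 0.37 (SE; limma adjusted p = 0.0209). The highest dKO library was below the lowest WT library, and dKO replicate 3 was far the lowest. The Atf6 call was lost when dKO replicate 3 was left out (-0.73, limma adjusted p = 0.0692), as it was without WT replicate 2 (-1.21, limma adjusted p = 0.0504) or WT replicate 3 (-1.05, limma adjusted p = 0.0758). The Atf6 change turned, once the trend was removed, to 0.24 ± 0.29 (SE; limma adjusted p = 0.551). The longest transcripts of the 3 sensors are 6946, 4513 and 7246 nucleotides, in the length class where genes in general were lower in dKO.

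Among the transcription factors, Atf4 alone rose by the test. Atf4, the main effector of the integrated stress response, was at 5855, 7161 and 11654 in dKO libraries, against 3248, 3649 and 4199 in WT, a log2 change of 1.098 ± 0.26 (SE; limma adjusted p = 0.00517). All 3 dKO libraries exceeded all 9 others, and the change with the trend removed was 0.60 ± 0.18 (SE; limma adjusted p = 0.0251). That last call was lost when dKO replicate 3 was left out as well, at 0.47 (limma adjusted p = 0.0545). Xbp1, the target of IRE1α splicing, was at 4063, 4566 and 5733 in dKO and 4110.4, 2989 and 3211 in WT, and the groups overlapped, with a change of -0.01 ± 0.19 (SE; limma adjusted p = 0.98) once the trend was removed. Ddit3, which encodes the pro-apoptotic factor CHOP, was at 397, 447 and 2974 in dKO, against 400.2, 319.9 and 277 in WT. Only dKO replicate 3 was far above WT, and the change of 1.30 ± 0.58 (SE; limma adjusted p = 0.0803) did not pass. It passed without dKO replicate 1 (1.81, limma adjusted p = 0.0174) or replicate 2 (1.72, limma adjusted p = 0.0423), and by edgeR (1.83, adjusted p = 0.0241), and it was -0.22 ± 0.33 (SE; limma adjusted p = 0.654) with the trend removed. Nupr1, a stress-induced chromatin protein, had the same pattern, with 244, 373 and 2166 in dKO and 568, 588 and 276 in WT, and did not pass, being at 0.05 ± 0.62 (SE; limma adjusted p = 0.966) with the trend removed. Atf3, an early-response factor downstream of ATF4, was barely detected, at 1.88, 22.2 and 19.7 in dKO and 7.81, 12.6 and 6.73 in WT, and its groups overlapped.

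**Figure D2:**
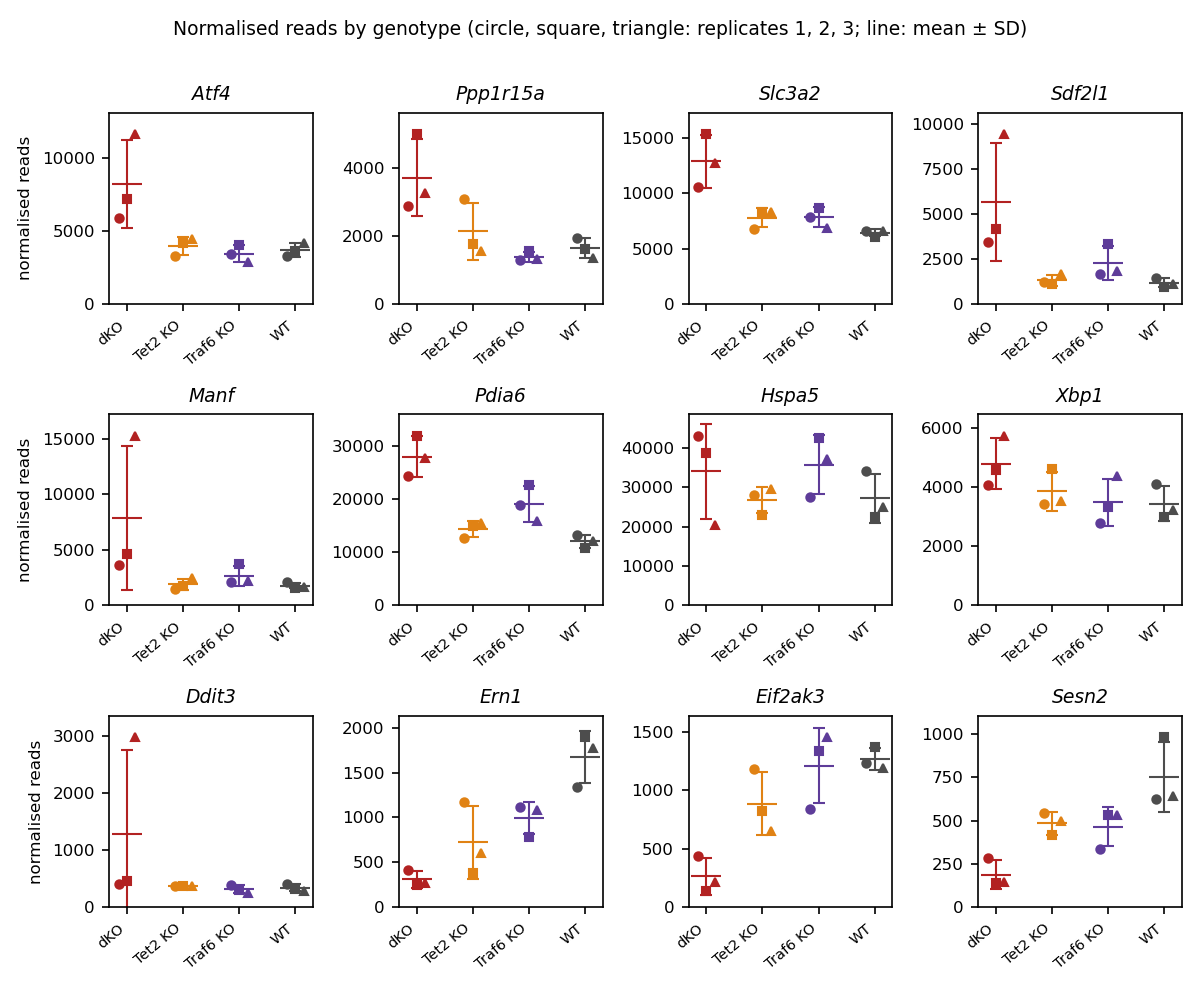
Each panel gives the normalised reads of 1 gene on a linear axis from 0, with a point for each library, a horizontal mark for the mean of the 3 libraries of a genotype and a vertical line for the SD, dKO at the left and WT at the right. Atf4, Sdf2l1 and Pdia6 are highest in dKO and Ern1 and Eif2ak3 lowest, while the high dKO mean of Ddit3 rests on the library at 2974 and the lower end of its SD line falls below the axis.

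Of the feedback genes and stress effectors, 1 of 4 tested rose and 1 fell, against 21.9% and 26.5% of all tested genes. Ppp1r15a (GADD34), the regulatory subunit that directs dephosphorylation of eIF2α and so restores translation, was at 2869, 4999 and 3249 in dKO, against 1933, 1609.7 and 1346 in WT. The dKO libraries were all above the WT libraries, with a log2 change of 1.16 ± 0.30 (SE; limma adjusted p = 0.00731), and of 1.34 ± 0.31 (SE; limma adjusted p = 0.00736) with the trend removed. The gene shares 717 bases with Tulp2 on the opposite strand, whose reads the unstranded kit cannot separate. Sesn2, a leucine sensor and inhibitor of mTORC1 induced through ATF4, went the other way, with 283, 136 and 143 in dKO and 627, 984 and 643 in WT. Its groups did not overlap, the change was -2.05 ± 0.35 (SE; limma adjusted p = 0.000939), and with the trend removed it was -1.26 ± 0.29 (SE; limma adjusted p = 0.00688). Sesn2 lies over Gm12981 on the same strand along 6089 bases, so its reads are uncertain. Trib3, a pseudokinase induced by ATF4 and CHOP, showed no separation, with 331, 472 and 445 in dKO and 425, 442 and 384 in WT. Ddit4 (REDD1), another inhibitor of mTORC1, was at 119, 209 and 66.1 in dKO and 136, 247 and 166 in WT, with overlapping groups. Trib3 with the trend removed was at -0.40 ± 0.29 (SE; limma adjusted p = 0.316) and Ddit4 at -1.23 ± 0.51 (SE; limma adjusted p = 0.0868). Thus the ATF4-linked genes Ppp1r15a and Sesn2 changed in opposite directions while Trib3 and Ddit4 did not pass.

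The amino acid and folate enzymes were called higher in dKO in 2 of 5 cases, against 21.9% of all tested genes. Phgdh, the first enzyme of serine synthesis, was at 8629, 9259 and 7139.8 in dKO libraries, against 4814, 4425 and 4769 in WT, with no overlap and a log2 change of 0.83 ± 0.20 (SE; limma adjusted p = 0.00599). Shmt2, the mitochondrial serine hydroxymethyltransferase, was at 11805, 10564 and 9579 in dKO and 5994, 6970.1 and 7685 in WT, a change of 0.63 ± 0.24 (SE; limma adjusted p = 0.0421). Its groups did not overlap, but its call was lost without any 1 of dKO replicates 1 or 2 or WT replicates 1, 2 or 3, where the change was 0.54 to 0.72 (limma adjusted p = 0.0629 to 0.13), and by edgeR. Neither passed with the trend removed, at 0.28 ± 0.22 (SE; limma adjusted p = 0.359) for Phgdh and 0.46 ± 0.20 (SE; limma adjusted p = 0.111) for Shmt2. Psat1, the next enzyme of serine synthesis, was at 9745, 9400.1 and 6302 in dKO and 6899, 5766 and 6287 in WT, where dKO replicate 3 fell inside the WT range. Without that library Psat1 passed at 0.60, limma adjusted p = 0.0149. Mthfd2, a mitochondrial folate enzyme, was at 1700.4, 1484 and 1276 in dKO, all above the 627, 849 and 1181 of WT, and did not pass. Asns, asparagine synthetase, was at 3065, 1795 and 2079 in dKO and 1053, 1324 and 1228 in WT, again without overlap and without passing. After trend removal Psat1 was at 0.16 ± 0.19 (SE; limma adjusted p = 0.556), Mthfd2 at 0.18 ± 0.39 (SE; limma adjusted p = 0.76) and Asns at 0.23 ± 0.46 (SE; limma adjusted p = 0.744). The highest Asns value of the series, 6120, was in Tet2 KO replicate 3.

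The amino acid transporters split. Slc3a2 (CD98hc), the heavy chain that brings several light chains to the cell surface, was at 10581, 15404 and 12802 in dKO libraries, against 6631, 6055 and 6636 in WT, a log2 change of 0.99 ± 0.20 (SE; limma adjusted p = 0.00213). The lowest dKO library exceeded every library of the other genotypes, and with the trend removed the change was 1.06 ± 0.18 (SE; limma adjusted p = 0.00191). Slc7a5 (LAT1), the light chain that carries leucine and other large neutral amino acids, was at 2779, 1073 and 574 in dKO and 2432, 3787 and 4914 in WT, a change of -1.57 ± 0.47 (SE; limma adjusted p = 0.0149). dKO replicate 1 lay inside the WT range. Without it the change was -2.18, limma adjusted p = 0.0004, whereas the call was lost without dKO replicate 3 (-1.04, limma adjusted p = 0.0562) or WT replicate 3 (-1.34, limma adjusted p = 0.0644). With the trend removed it was -0.87 ± 0.38 (SE; limma adjusted p = 0.0981). Slc7a5 also lies over Gm20388 on the opposite strand along 26545 bases. Slc7a11 (xCT), the cystine importer, was low throughout, at 1.88, 10.4 and 32.2 in dKO and 27, 42.3 and 51 in WT, and did not pass. The 2 chains of the CD98-LAT1 transporter were thus called in opposite directions as deposited, with dKO replicate 1 inside the WT range for the light chain, and the heavy chain alone was called with the trend removed.

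Of the 11 ER chaperones and folding enzymes, 6 rose and 1 fell, against 21.9% and 26.5% of all tested genes. With the trend removed, those called were Sdf2l1, Manf, Pdia6 and Pdia3, all higher, against 15.9% higher and 13.3% lower of all genes. Sdf2l1, a cofactor of the chaperone BiP, was at 3421, 4184 and 9452 in dKO libraries, against 1443, 945 and 1092 in WT, a log2 change of 2.17 ± 0.38 (SE; limma adjusted p = 0.00104). All dKO values exceeded all WT values, and without the highest, dKO replicate 3, the change was 1.73, limma adjusted p = 0.00202. Manf, a soluble protein of the ER lumen that is secreted under stress, was at 3619, 4595 and 15316 in dKO and 2088, 1583 and 1681 in WT, with a change of 1.84 ± 0.44 (SE; limma adjusted p = 0.00527). It too was separated in all 3 dKO libraries, and the change without dKO replicate 3 was 1.20, limma adjusted p = 0.00699. The annotated span of Manf also covers Rbm15b on the same strand along 6511 bases and Dcaf1 on the opposite strand along 42681, so its reads are uncertain. Creld2, a disulphide isomerase of the ER lumen, was at 1685, 2416 and 5002 in dKO, against 1369, 1299 and 1493 in WT, a change of 0.98 ± 0.35 (SE; limma adjusted p = 0.0321). The Creld2 call was lost without dKO replicate 3 (0.54, limma adjusted p = 0.11) and without WT replicate 1 (0.97, limma adjusted p = 0.0715), 2 (0.93, limma adjusted p = 0.0902) or 3 (1.03, limma adjusted p = 0.0646). Once the trend was removed, Sdf2l1 was at 0.85 ± 0.22 (SE; limma adjusted p = 0.0132) and Manf at 1.40 ± 0.37 (SE; limma adjusted p = 0.0137), while Creld2 turned to -0.11 ± 0.19 (SE; limma adjusted p = 0.692).

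Among the protein disulphide isomerases, Pdia6 was at 24392, 31980.3 and 27710.4 in dKO, against 13302, 10725 and 12104 in WT, a log2 change of 1.22 ± 0.20 (SE; limma adjusted p = 0.000718), and of 0.67 ± 0.16 (SE; limma adjusted p = 0.00935) with the trend removed. Pdia3 (ERp57), the isomerase that works with calreticulin and calnexin, was at 45660.5, 51806 and 44321 in dKO and 31354, 28163 and 28078 in WT, a change of 0.69 ± 0.18 (SE; limma adjusted p = 0.00856), and of 0.52 ± 0.15 (SE; limma adjusted p = 0.0242) with the trend removed. Neither overlapped with WT. Calr, the lectin chaperone calreticulin, was at 47458, 55867 and 32756 in dKO, against 28395, 25453 and 29120.1 in WT, a change of 0.68 ± 0.22 (SE; limma adjusted p = 0.0203). All dKO libraries were above WT, but the call was lost without dKO replicate 2 (0.51, limma adjusted p = 0.097) or WT replicate 2 (0.62, limma adjusted p = 0.0758), and with the trend removed (0.17 ± 0.24 (SE; limma adjusted p = 0.637)). Canx, the membrane-bound counterpart calnexin, was at 27373, 17346 and 9061 in dKO and 22487, 30735 and 29733 in WT and passed neither way, except that it was lower without dKO replicate 1 (-1.13, limma adjusted p = 0.00322); with the trend removed it was at -0.27 ± 0.26 (SE; limma adjusted p = 0.47). Hyou1, a large heat shock protein of the ER, was at 636, 147 and 161 in dKO, against 662, 1266 and 1460.0 in WT, a change of -2.11 ± 0.52 (SE; limma adjusted p = 0.00618). The highest dKO library lay just under the lowest WT library. Without dKO replicate 1 the Hyou1 change was -2.79, limma adjusted p = 0.000182, and with the trend removed it was -0.96 ± 0.39 (SE; limma adjusted p = 0.0824).

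Hspa5 (BiP), the most studied marker of the unfolded protein response, did not pass. It was at 43222, 38773 and 20429 in dKO libraries, against 34184, 22421 and 24975 in WT, a log2 change of 0.28 ± 0.28 (SE; limma adjusted p = 0.434). dKO replicates 1 and 2 were above all WT libraries and replicate 3 was below them. The disulphide isomerases P4hb and Pdia4 had the same order, with P4hb at 42399, 37710.2 and 12853 in dKO and 27184, 22134 and 22622 in WT, and Pdia4 at 11188, 10193 and 5256 in dKO and 6074, 6366 and 6310.3 in WT. Without dKO replicate 3 all 3 passed, Hspa5 at 0.61, limma adjusted p = 0.042, P4hb at 0.74, limma adjusted p = 0.00611 and Pdia4 at 0.77, limma adjusted p = 0.00221. As deposited, dKO replicate 3 held the highest values of the series for Sdf2l1, Manf and Creld2 and the lowest for Hspa5, P4hb and Pdia4. After trend removal that library was still highest for Manf and lowest for P4hb and Pdia4, but not the extreme library for Sdf2l1, Creld2 or Hspa5. Over all 3 dKO libraries the trend-removed changes were 0.60 ± 0.25 (SE; limma adjusted p = 0.0887) for Hspa5, 0.33 ± 0.34 (SE; limma adjusted p = 0.497) for P4hb and 0.03 ± 0.27 (SE; limma adjusted p = 0.951) for Pdia4. Without dKO replicate 3 as well, all 3 were called higher, Hspa5 at 0.86, limma adjusted p = 0.0147, P4hb at 0.85, limma adjusted p = 0.00626 and Pdia4 at 0.45, limma adjusted p = 0.0299. The neutrophil and monocyte progenitor markers, genes of cells with many secretory granules, summed to 123925 or more in every dKO library, against at most 27539 in WT, and their part in the chaperone values was not tested.

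Of the genes of ER-associated degradation, 2 of 4 fell and 0 rose, against 26.5% and 21.9% of all tested genes. Sel1l, the adaptor of the main ubiquitin ligase complex of this pathway, was at 2649, 1461 and 1442 in dKO, against 4709, 4954 and 5267 in WT, a log2 change of -1.49 ± 0.27 (SE; limma adjusted p = 0.00135). The groups were well apart, and with the trend removed the change was -0.20 ± 0.16 (SE; limma adjusted p = 0.372). Syvn1 (HRD1), the ligase itself, was at 937, 734 and 284 in dKO and 1137, 1503 and 1459 in WT, a change of -1.22 ± 0.37 (SE; limma adjusted p = 0.0168). All dKO values were below WT, with replicate 3 lowest. The Syvn1 call was lost without WT replicate 2 (-1.15, limma adjusted p = 0.0594) or WT replicate 3 (-1.17, limma adjusted p = 0.0556), and the change was -0.71, limma adjusted p = 0.0341 without dKO replicate 3 and -0.21 ± 0.29 (SE; limma adjusted p = 0.621) with the trend removed. Edem1, which takes misfolded glycoproteins out of the folding cycle, was at 2081, 1746 and 1129.5 in dKO and 1965, 2475 and 2477 in WT. It overlapped and did not pass as deposited, was lower without dKO replicate 1 (-0.71, limma adjusted p = 0.0413), and was called higher with the trend removed, at 0.66 ± 0.23 (SE; limma adjusted p = 0.0443). Herpud1, a scaffold of the same ligase and the gene with both an ERSE-II and a C/EBP-ATF element above, was at 4450.0, 5692 and 5739 in dKO and 4825, 3884 and 4003 in WT, with overlap, and at -0.32 ± 0.17 (SE; limma adjusted p = 0.169) with the trend removed.

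The changes were then set against transcript length. Over the 35 members the rank correlation of the log2 change in dKO with the length of the longest transcript was -0.69, and over 13677 genes it was -0.62; the genes share the same 6 libraries, so this is a description. The 14 members of up to 2200 nucleotides had a median change of 0.81, against 1.08 over the 3914 genes of that length. The 12 members of over 2200 and up to 4000 nucleotides had a median of 0.42, against -0.12 over 4955 genes, and the 9 longer ones -1.49, against -1.23 over 4808 genes. All 8 members that fell have transcripts of 3475 nucleotides or more, and all 11 that rose have 2813 or less. The roles differ in length, but not without exception: the 3 sensors and 3 of the 4 degradation genes are longer than 4000 nucleotides, and so are the folding genes Canx (4281) and Hyou1 (4925), while Herpud1 has 1952. Sdf2l1, Ppp1r15a, Slc3a2, Manf and Pdia6 lay above the median of genes of their length, and Ern1, Eif2ak3, Sesn2, Hyou1 and Slc7a5 lay below it. The part of RNA quality in this trend was not tested.

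**Figure D3:**
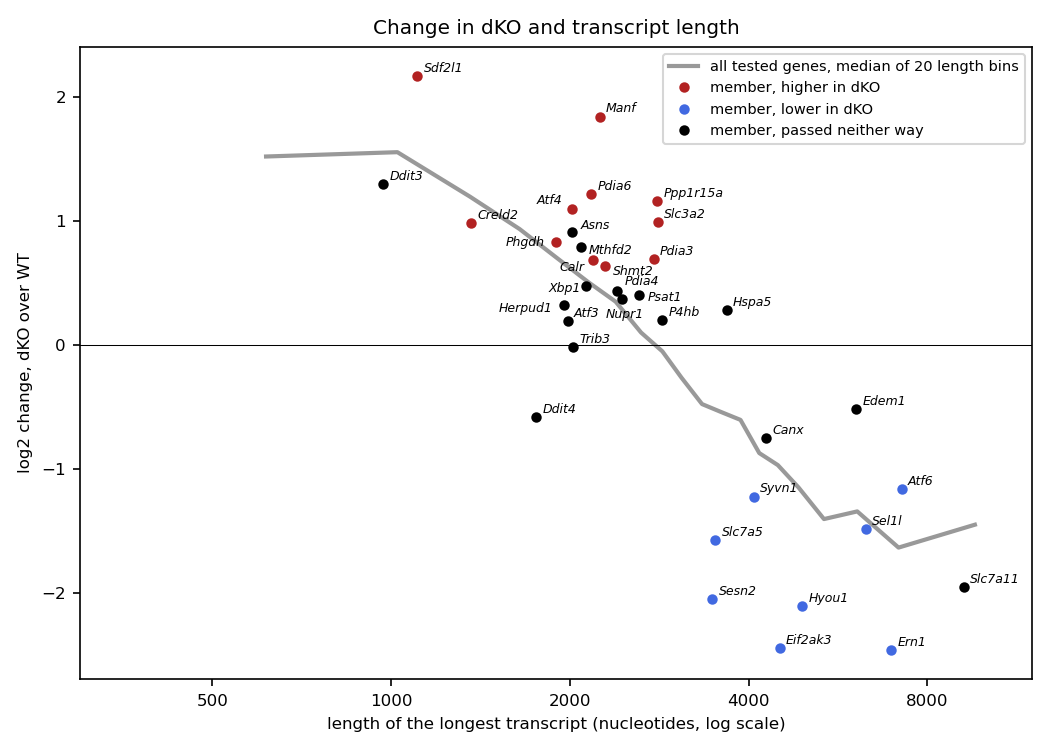
Points are the 35 tested members, with the length of the longest transcript in nucleotides on a log axis and the log2 change in dKO over WT on the vertical axis; the grey line joins the medians of all tested genes in 20 length bins. Red members rose, blue fell and black passed neither way, and both the members and the line descend with length.

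**Figure D4:**
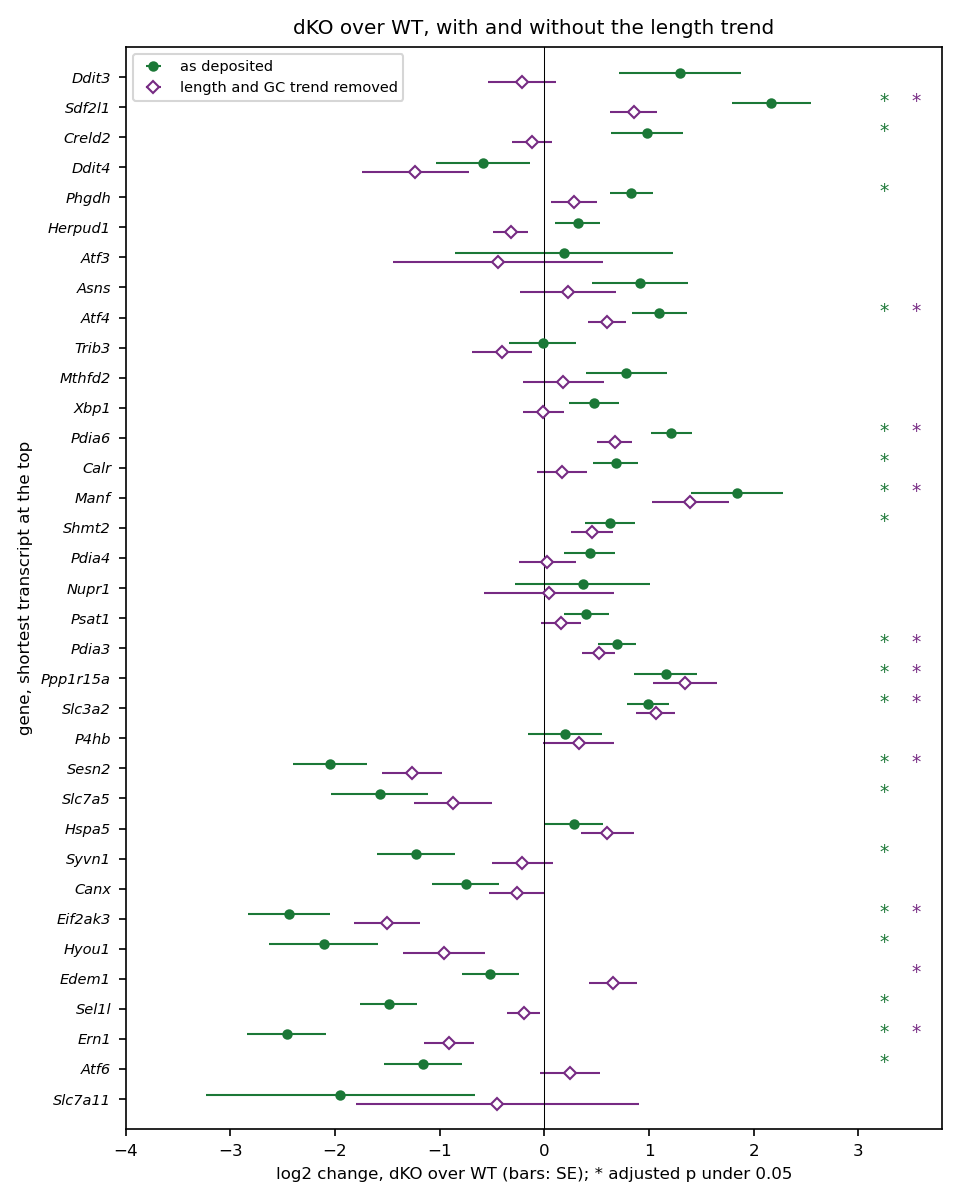
Log2 change in dKO over WT with its SE for each tested member, shortest transcript at the top, as deposited (filled green) and after the length and GC trend was taken out (open purple); a star marks an adjusted p under 0.05. Removing the trend draws Sel1l, Syvn1 and Atf6 to near 0 or above it and leaves Eif2ak3, Ern1 and Sesn2 below 0 and Slc3a2 and Ppp1r15a about where they were.

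The genes that share a promoter motif were spread over the outcomes in dKO as deposited. Of the 6 with an ERSE in the window, Pdia6, Creld2 and Calr rose, Hspa5 and Canx passed neither way and Syvn1 fell. Over all tested genes 21.9% were called higher and 26.5% lower. With the length and GC trend removed, Pdia6 alone of the 6 was called, on the higher side, so the spread over outcomes was not seen there. In that setting 15.9% of all genes were called higher and 13.3% lower. Of the 6 with a C/EBP-ATF element, 0 of the 5 tested passed with or without the trend, namely Asns, Atf3, Nupr1, Slc7a11 and Herpud1, and Chac1 was not tested. The same shares of all genes apply here, and counts this small do not set the genes with either motif apart from them. The ATF4-linked genes that did rise as deposited, Ppp1r15a, Phgdh, Shmt2 and Slc3a2, had no match to the 4 motifs in this window. Of these, Ppp1r15a and Slc3a2 were still called with the trend removed.

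Neither single knockout moved a member past the threshold. In Tet2 KO against WT, 0 of 35 members rose and 0 fell (limma), against 0.107% and 0.306% of all tested genes, and 5 had an unadjusted p under 0.05. edgeR and DESeq2 also called 0. In Traf6 KO against WT the counts were 0 and 0, against 0.0783% and 0.192% of all genes, with 5 at an unadjusted p under 0.05, and 0 by edgeR and DESeq2. The median change over the members was -0.05 in Tet2 KO and 0.23 in Traf6 KO, against 0.02 and -0.03 over all genes. With the trend removed the members' counts were again 0, against 0.154% and 0.351% of genes in Tet2 KO and 0.161% and 0.292% in Traf6 KO. Both comparisons use the same 3 WT libraries, as does dKO against WT.

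In Tet2 KO, the 4 members with the smallest p were Ern1, Atf3, Nupr1 and Asns. Ern1 was at 1172, 382 and 606 in Tet2 KO, against 1343, 1898 and 1781 in WT, below WT in all 3 libraries, with a log2 change of -1.35 ± 0.38 (SE; limma adjusted p = 0.189). Without the library labelled Tet2 KO replicate 1 it passed, at -1.78, limma adjusted p = 0.0339. The rank correlation of change with transcript length was -0.03 in that library and -0.40 and -0.38 in Tet2 KO replicates 2 and 3. With the trend removed, Ern1 in Tet2 KO libraries was at -0.34, -1.37 and -0.79 from the WT mean, and did not pass. The part of the length trend in the call without replicate 1 was not tested. Atf3 had 0 reads in all 3 Tet2 KO libraries, against 7.81, 12.6 and 6.73 in WT, and did not pass (limma adjusted p = 0.264). Taking 3 reads per library as the floor, the WT mean was at least 3.56-fold higher, a bound that holds no spread between libraries. Atf3 entered the test only through dKO and WT libraries, so its low value in Tet2 KO is not independent of the filter. Nupr1 was at 223, 169 and 111 in Tet2 KO and 568, 588 and 276 in WT, all below WT, a change of -1.48 ± 0.65 (SE; limma adjusted p = 0.531). Asns was at 1284, 1762 and 6120.2 in Tet2 KO, against 1053, 1324 and 1228 in WT, a change of 1.004 ± 0.46 (SE; limma adjusted p = 0.58) that was 0.33 without Tet2 KO replicate 3. Counting groups that did not overlap, 2 members were above WT, Slc3a2 and Pdia4, and 8 below, against 8.07% and 11.1% of all genes. 0 of the 11 folding genes passed in Tet2 KO, with log2 changes of -0.94 (Hyou1) to 0.30 (Pdia4). Hyou1 was at 716, 538 and 446 in Tet2 KO and 662, 1266 and 1460.0 in WT, and Calr at 25070.2, 26195 and 28379 in Tet2 KO and 28395, 25453 and 29120.1 in WT. With the trend removed, Hyou1 in Tet2 KO libraries was at log2 values of -0.48, -0.59 and -0.94 from the WT mean, against -0.50, 0.16 and 0.34 in WT libraries. The granule gene Mpo was at 40669, 42086 and 85126 in Tet2 KO and 15446, 12565 and 23184 in WT.

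In Traf6 KO, the smallest p values belonged to Pdia6, Calr, Atf3 and Sdf2l1. Pdia6 was at 18899.5, 22581 and 15824 in Traf6 KO, against 13302, 10725 and 12104 in WT, above it in all 3 libraries, with a log2 change of 0.66 ± 0.20 (SE; limma adjusted p = 0.341). Calr was at 42161, 52952 and 36467 in Traf6 KO and 28395, 25453 and 29120.1 in WT, also without overlap, a change of 0.65 ± 0.22 (SE; limma adjusted p = 0.438). Sdf2l1 was at 1656, 3334 and 1818 in Traf6 KO, against 1443, 945 and 1092 in WT, a change of 0.92 ± 0.38 (SE; limma adjusted p = 0.585), and 0.60 without Traf6 KO replicate 2. Atf3 had 2 reads over the 3 Traf6 KO libraries and 29 over the WT libraries, a ratio of 13.5 in favour of WT (95% exact counting interval 3.41 to 116, counting error only; limma adjusted p = 0.547). No Traf6 KO library helped Atf3 into the test, so this ratio is not independent of the filter either. In 11 members all Traf6 KO libraries were above all WT libraries, against 9.68% of all genes, and 7 of the 11 encode folding proteins: Sdf2l1, Manf, Calr, Canx, Pdia4, Pdia6 and P4hb. In 4 members they were all below, against 11.0%: Ern1, Atf3, Trib3 and Sesn2. Traf6 KO replicate 2 had the highest values of the group for Sdf2l1, Manf, Creld2, Calr, Pdia3, Pdia6, P4hb and Hspa5. It had the lowest for Hyou1 and Canx, and Pdia4 was highest in replicate 3. Replicate 2 was also the one with the highest Mpo, 12561, 88759 and 46966 in the 3 libraries. The part of granule-bearing progenitors in these values was not tested. The plot of the 3 knockouts shows these small shifts beside those of dKO.

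**Figure D5:**
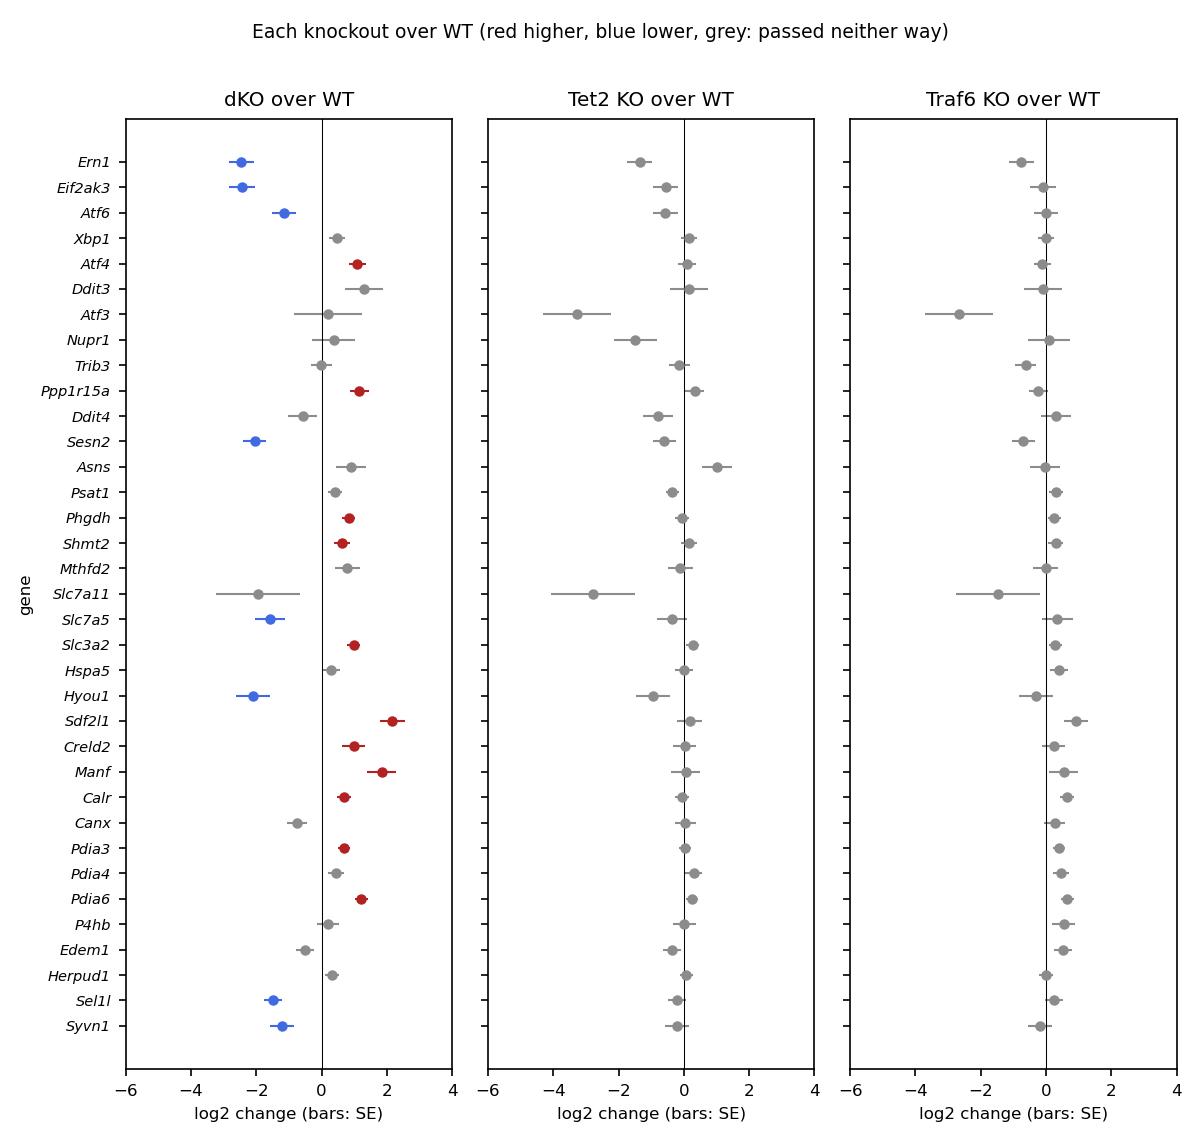
Log2 change over WT with its SE for the 35 tested members in dKO (left), Tet2 KO (middle) and Traf6 KO (right), each with 3 libraries against the same 3 WT libraries. Coloured points passed at an adjusted p under 0.05, red higher and blue lower; all are in the dKO panel, and the wide bars of Atf3 and Slc7a11 belong to genes with few reads.

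Set against the single knockouts, dKO differed in about as many members as against WT. Against Tet2 KO, 13 members rose and 5 fell, against 15.5% and 19.9% of all genes, with a median of 0.31 over the members and -0.12 over all genes. Against Traf6 KO, 8 rose and 10 fell, against 17.3% and 20.7%, with medians of 0.27 and 0.02. With equal library totals, 5 were higher and 7 lower against Tet2 KO, against 10.4% and 24.5% of all genes, and 4 were higher and 10 lower against Traf6 KO, against 12.6% and 22.2%. After removal of the trend, 7 rose and 1 fell against Tet2 KO (9.09% and 7.25% of all genes), and 3 rose and 3 fell against Traf6 KO (10.8% and 9.19%). Few of these calls were made whichever library was left out: against Tet2 KO, 4 of the 18 were (Pdia6, Sdf2l1, Eif2ak3 and Sel1l), and against Traf6 KO, 6 of 18 (Atf4, Ppp1r15a, Eif2ak3, Ern1, Sel1l and Slc7a5). With the libraries labelled Tet2 KO replicate 1 and Traf6 KO replicate 1 both left out, the members' counts were 0 and 0 against Tet2 KO, where 0.185% and 0.221% of all genes were called, and 2 and 4 against Traf6 KO, where 1.87% and 10.3% were. Each count also sets libraries with Y-linked reads against libraries of which all but 1 had almost none.

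Eif2ak3 was at 438, 136 and 211 in dKO libraries, 1183, 824 and 651 in Tet2 KO and 844, 1339.9 and 1458 in Traf6 KO. It was below every single-knockout library in dKO, with a log2 change of -1.88 ± 0.39 (SE; limma adjusted p = 0.00844) against Tet2 KO and -2.34 ± 0.39 (SE; limma adjusted p = 0.00221) against Traf6 KO. Sel1l was at 2649, 1461 and 1442 in dKO, 5449, 3509 and 4145 in Tet2 KO and 6357, 4590.4 and 6845 in Traf6 KO, likewise apart, with changes of -1.28 ± 0.27 (SE; limma adjusted p = 0.00876) and -1.72 ± 0.27 (SE; limma adjusted p = 0.00212). Ern1 was at 1172, 382 and 606 in Tet2 KO and 1115, 782 and 1079 in Traf6 KO, so the order was dKO, Tet2 KO, Traf6 KO and WT from low to high by mean. Its changes in dKO were -1.11 ± 0.38 (SE; limma adjusted p = 0.0379) against Tet2 KO, lost without dKO replicate 2 (-0.96, limma adjusted p = 0.108) or 3 (-1.01, 0.0851) or without Tet2 KO replicate 1 (-0.68, 0.17) or 3 (-1.16, 0.0697), and -1.71 ± 0.38 (SE; limma adjusted p = 0.00675) against Traf6 KO. Atf4 was at 5855, 7161 and 11654 in dKO, 3281, 4174 and 4464 in Tet2 KO and 3423, 4018 and 2878 in Traf6 KO, with changes of 0.999 ± 0.26 (SE; limma adjusted p = 0.0152) and 1.21 ± 0.26 (SE; limma adjusted p = 0.00608). The Atf4 call against Tet2 KO was lost without Tet2 KO replicate 1 (0.87, limma adjusted p = 0.0707). Ppp1r15a was at 2869, 4999 and 3249 in dKO, 3087, 1767 and 1537 in Tet2 KO and 1272, 1549.8 and 1301 in Traf6 KO. The library labelled Tet2 KO replicate 1 overlapped with dKO, and the changes were 0.82 ± 0.30 (SE; limma adjusted p = 0.0458) and 1.39 ± 0.30 (SE; limma adjusted p = 0.00555). The one against Tet2 KO was lost without dKO replicate 2 (0.59, limma adjusted p = 0.173) or 3 (0.90, 0.0566), without Tet2 KO replicate 2 (0.72, 0.128) or 3 (0.62, 0.161), and by edgeR.

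Among the folding genes, Pdia6 was at 24392, 31980.3 and 27710.4 in dKO, 12634, 14864 and 15505 in Tet2 KO and 18899.5, 22581 and 15824 in Traf6 KO, and all dKO values exceeded the rest. Its changes were 0.96 ± 0.20 (SE; limma adjusted p = 0.00826) against Tet2 KO and 0.56 ± 0.20 (SE; limma adjusted p = 0.0406) against Traf6 KO, the second lost without dKO replicate 2 (0.46, limma adjusted p = 0.138) or 3 (0.56, 0.0566) or without Traf6 KO replicate 1 (0.56, 0.0946) or 3 (0.43, 0.155). Sdf2l1 was at 3421, 4184 and 9452 in dKO, 1181, 1093 and 1655 in Tet2 KO and 1656, 3334 and 1818 in Traf6 KO. All dKO libraries were again highest, with changes of 1.99 ± 0.38 (SE; limma adjusted p = 0.00704) and 1.25 ± 0.38 (SE; limma adjusted p = 0.0242), the second lost without dKO replicate 3 (0.81, limma adjusted p = 0.0777) or without Traf6 KO replicate 1 (1.06, 0.0844) or 3 (1.13, 0.0854). Calr, by contrast, had 47458, 55867 and 32756 in dKO and 42161, 52952 and 36467 in Traf6 KO, which overlapped, and did not pass, while against Tet2 KO it was called higher, at 0.74 ± 0.22 (SE; limma adjusted p = 0.0217), a call lost without dKO replicate 2 or Tet2 KO replicate 1 or 2. The difference between those 2 comparisons was not tested. Slc7a5 was at 2779, 1073 and 574 in dKO and 4242, 3528 and 6234 in Traf6 KO, with no overlap and a change of -1.92 ± 0.47 (SE; limma adjusted p = 0.0106). Atf3 was at 1.88, 22.2 and 19.7 in dKO and at 0 in Tet2 KO, at least 5.74-fold higher in dKO by the same floor (limma adjusted p = 0.0234). Against the 2 reads of Traf6 KO its 30 dKO reads gave a ratio of 19.4 (95% exact counting interval 4.91 to 167; limma adjusted p = 0.0449). Both calls were lost without dKO replicate 2 or 3 and without other single libraries. Atf3 entered the test only through dKO and WT libraries, where it was higher, so neither call is independent of the filter.

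The other members called against a single knockout are given by their range. Against Tet2 KO, Nupr1, Psat1, Phgdh, Slc3a2, Creld2, Manf and Pdia3 were also called higher, with log2 changes of 0.66 (Pdia3) to 1.85 (Nupr1, limma adjusted p = 0.0412), and Sesn2 and Syvn1 lower, at -1.45 and -1.01. Nupr1 was at 244, 373 and 2166 in dKO and 223, 169 and 111 in Tet2 KO, and without the high library, dKO replicate 3, its change was 0.90, limma adjusted p = 0.134. Against Traf6 KO, Phgdh, Slc3a2 and Manf were also called higher, at 0.58, 0.71 and 1.30, and Atf6, Sesn2, Hyou1, Canx, Edem1 and Syvn1 lower, by changes of -1.79 (Hyou1) to -1.02 (Canx). Canx was at 27373, 17346 and 9061 in dKO and 32648, 32305 and 34166 in Traf6 KO, and Edem1 at 2081, 1746 and 1129.5 in dKO and 3218, 2602 and 4192 in Traf6 KO, and neither group pair overlapped. Each of these calls was lost when at least 1 particular library was left out. With the trend removed, Atf4, Ppp1r15a, Slc3a2, Sdf2l1, Manf, Pdia3 and Pdia6 were still called higher against Tet2 KO and Eif2ak3 lower. Against Traf6 KO those still called were Atf4, Ppp1r15a and Slc3a2 on the higher side and Eif2ak3, Sel1l and Slc7a5 on the lower. Atf4, Ppp1r15a and Slc3a2 were therefore called higher in dKO against each of the other genotypes with and without the trend, and Eif2ak3 lower.

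Whether the effect of losing Traf6 differed with Tet2 also lost was tested as an interaction, that is dKO minus Tet2 KO minus the difference of Traf6 KO and WT. 0 members passed in either direction by limma, against 0.107% of all genes on the higher and 0.114% on the lower side, with 8 members at an unadjusted p under 0.05. With the trend removed it was again 0, against 0.0731% and 0.0877%. The same held by edgeR, whereas DESeq2 called 1, Sel1l, at -1.48 (adjusted p = 0.0286). The 4 members with the smallest p were Atf3 at 6.14 ± 1.47 (SE; limma adjusted p = 0.182), a value that depends on the pseudocount because Tet2 KO had no reads, Sel1l at -1.51 ± 0.39 (SE; limma adjusted p = 0.201), Eif2ak3 at -1.78 ± 0.56 (SE; limma adjusted p = 0.216) and Atf4 at 1.11 ± 0.37 (SE; limma adjusted p = 0.227). For Atf4 the dKO libraries were high and both single knockouts near WT, and for Sel1l the dKO libraries were low and both single knockouts overlapped with WT. Eif2ak3 was low in dKO and overlapped with WT in Traf6 KO. In Tet2 KO it was below every WT library, at 1183, 824 and 651 against 1235, 1376 and 1196. Without dKO replicate 1, 2 members were called higher and 4 lower (5.71% and 11.4%), against 5.13% and 12.3% of all genes: Atf3 (7.12, limma adjusted p = 0.00871) and Atf4 (1.32, 0.0242) on the higher side, and Canx (-1.45, 0.0205), Eif2ak3 (-2.24, 0.00856), Sel1l (-1.80, 0.0049) and Slc7a5 (-2.17, 0.013) on the lower. Atf3 entered the test only through dKO and WT libraries, which count as positive in the interaction. Its values here are therefore not independent of the filter.

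Of 58 further genes of these pathways, 56 had enough reads. In dKO against WT, 13 rose and 16 fell, which is 23.2% and 28.6%, against 21.9% and 26.5% of all genes, and the median was -0.17, against -0.09. After trend removal 12 were called higher and 5 lower, against 15.9% and 13.3% of all genes. Those with the smallest p were Edem3, Slc38a2, Eif2ak4 and Ppp1r15b, all lower. Edem3, a mannosidase of ER-associated degradation, was at 317, 92.6 and 216 in dKO, against 2061, 1778 and 2060.2 in WT, a log2 change of -3.40 ± 0.47 (SE; limma adjusted p = 0.000366). Slc38a2 (SNAT2), an amino acid transporter induced through ATF4, was at 5276, 2888 and 2722 in dKO and 10318, 12201 and 13633 in WT, a change of -1.79 ± 0.26 (SE; limma adjusted p = 0.000432). Both were below every WT library, and with the trend removed they were at -2.28 ± 0.38 (SE; limma adjusted p = 0.00158) and -0.67 ± 0.16 (SE; limma adjusted p = 0.00947). Eif2ak4 (GCN2), the eIF2α kinase that senses uncharged tRNA, was at 1081, 563 and 561 in dKO, against 1968, 2727 and 2611 in WT, a change of -1.78 ± 0.29 (SE; limma adjusted p = 0.000707), and of -0.64 ± 0.19 (SE; limma adjusted p = 0.0262) with the trend removed. Ppp1r15b (CReP), the constitutive partner of the phosphatase that GADD34 also directs, was at 1366, 412 and 756 in dKO and 2899, 3877 and 3948 in WT, a change of -2.23 ± 0.37 (SE; limma adjusted p = 0.000831), and of -1.06 ± 0.26 (SE; limma adjusted p = 0.00903) with the trend removed. The constitutive subunit was thus lower in dKO and the inducible one, Ppp1r15a, higher, in the same libraries and both ways of handling the trend. 0 of the 56 passed in either single knockout by limma as deposited, and 0 by edgeR and DESeq2, with 5 at an unadjusted p under 0.05 in Tet2 KO and 6 in Traf6 KO. Against Tet2 KO, dKO had 11 higher and 11 lower (19.6% each, against 15.5% and 19.9% of all genes), led by Slc38a2, Mbtps1, Edem3 and Eif2ak1, and against Traf6 KO 14 higher and 15 lower (25% and 26.8%, against 17.3% and 20.7%), led by Slc38a2, Edem3, Eif2ak4 and Ppp1r15b.

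Per kilobase of the longest transcript, the level of the members in WT spanned a set of folding genes at the top and 3 barely detected genes at the bottom. Calr had 12663 normalised reads per kilobase in WT, followed by Pdia3 with 10541, P4hb with 8382, Hspa5 with 7406, Canx with 6459 and Pdia6 with 5537. In dKO the per-kilobase level of Pdia6, 12886, was above those of P4hb, 10831, and Hspa5, 9298, by the mean of the 3 libraries. Without dKO replicate 3 the mean for Pdia6 was 12959, below the 14000.3 of P4hb and above the 11165 of Hspa5. Atf4 stood at 4073 in dKO and 1832 in WT, and the sensors far lower: Ern1 at 44.4 in dKO and 241 in WT, Eif2ak3 at 58.0 in dKO and 281 in WT, and Atf6 at 115 in dKO and 234 in WT. The mRNA of the sensors was thus a small fraction of that of the folding genes named in this paragraph in both genotypes, by this measure of level. This does not hold for every folding gene: Hyou1 was about as low as the sensors.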

How the data were processed

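The 12 libraries were made with a SMART-Seq v4 low-input kit, which primes with oligo-dT and does not mark strand, and sequenced on a HiSeq 4000, per the labels' protocols. Tools named in the submitters' processing notes are STAR, featureCounts, bcl2fastq and DESeq2, and the builds are GRCm38 and mm10; for their versions and settings the sources used here say nothing. The authors deposited a normalised signal per gene, whole reads divided by a size factor per library; dividing by each library's smallest step gave whole reads for 100% of values. The libraries held 22169673 to 53921402 reads.

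The test covered the 14045 of 37187 genes that reached 10 in 3 or more libraries, with limma 3.58.1 in R 4.3.3 (trend and robust moderation) on log2(value + 1), all 12 libraries in 1 fit of the 4 genotypes. P-values were Benjamini-Hochberg adjusted over all tested genes, with a threshold of 0.05. Fold changes are therefore shrunken for genes of few reads, as the scale is log2(value + 1). Alternatives were a pseudocount of 5, no filter, equal totals, edgeR 4.0.16 and DESeq2 1.42.0 on the recovered reads, a replicate block, a loess trend on transcript length and GC content removed per library (lengths for 97.4% of tested genes), only the compared groups, and each library left out. Leaving dKO replicate 3 out of the fit without the trend, and leaving out the libraries labelled Tet2 KO replicate 1 and Traf6 KO replicate 1, were chosen after seeing the data. edgeR run on the recovered reads called 3103 genes higher and 3436 lower in dKO against WT, where limma called 3074 and 3716. Same-numbered libraries did not deviate together, so numbers were not treated as pairs.

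The members and all gene lists were chosen with earlier results of these data known. Changes are given for members past the threshold or, where fewer than 4 passed, for the 4 with the smallest p, and for up to 4 of the other pathway genes; changes of Ddit3 and Hspa5, of members called only in another setting, and of members the promoter and length sections name were added after their values were seen. The limma test of dKO against WT was tested on simulated data, with 13845 of 14045 genes unchanged. There 48% of 4-fold decreases and 0.0433% of unchanged genes were called. In the deposited data 21.9% of genes were called higher and 26.5% lower, which loosens the adjusted threshold, so these rates do not carry over. Reads shared with overlapping genes (Ddit3 with Mars over 68 bases, Manf with 4930524O07Rik over 433, Herpud1 with Gm15890 over 535) could not be separated. The same holds for Manf with Dcaf1 over 42681 bases and with Rbm15b over 6511, which the deposited table does not list under these symbols.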

Additional observations from a re-analysis of the deposited data

How the results depend on the processing

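Pseudocount, edgeR, DESeq2 and the replicate block left the counts of members called in dKO against WT within 1.5 times of 11 higher and 8 lower. With equal library totals 6 were higher, and with only the 2 groups compared 5 were lower, where fewer libraries enter the fit. Without the length and GC trend 3 were lower, as with the replicate block added or dKO replicate 3 also left out. Without any 1 library there were 8 to 14 higher and 5 to 10 lower, the 5 being without WT replicate 3. Against Tet2 KO the 13 higher became 5 with equal totals, 7 without the trend, 6 with the replicate block as well, and 0 with only the 2 groups compared or with the libraries labelled Tet2 KO replicate 1 and Traf6 KO replicate 1 left out. The 5 lower became 3 without the filter on low values, 1 without the trend, with or without the block, and 0 with only the 2 groups compared, without the trend and dKO replicate 3, or without those 2 labelled libraries. Without any 1 library there were 3 to 14 higher and 2 to 9 lower. Against Traf6 KO the 8 higher became 5 without the filter, 4 with equal totals, 3 without the trend (also with the block, or with dKO replicate 3 left out), 1 with only the 2 groups and 2 without the 2 labelled libraries. The 10 lower became 3 without the trend or with only the 2 groups compared, 4 without the trend and with the block, 2 without the trend and dKO replicate 3, and 4 without the 2 labelled libraries. Without any 1 library there were 2 to 9 higher and 4 to 10 lower. The interaction had 1 lower by DESeq2, and 0 to 2 higher and 0 to 4 lower without any 1 library. Tet2 KO had 0 higher and 0 to 1 lower, and Traf6 KO 0 and 0.

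Some signs turned. In dKO against WT without the trend Atf6 was at 0.24 and Creld2 at -0.11, with or without the block. Without the trend and dKO replicate 3, Syvn1 was at 0.23, Atf6 at 0.62 (limma adjusted p = 0.0403) and Creld2 at -0.16. In that setting Creld2 was at -0.034 and Syvn1 at 0.25 against Tet2 KO, and Edem1 was at 0.13, Atf6 at 0.36 and Syvn1 at 0.23 against Traf6 KO. Apart from smaller fits, the cause of these shifts was not tested.

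Replicate numbers did not pair the libraries: correlations of deviations were -0.18 to 0.19 over 18 same-numbered pairs and -0.19 to 0.22 over 36 others. With the replicate block, dKO against WT had 11 higher and 8 lower, dKO against Tet2 KO 11 and 4, and dKO against Traf6 KO 6 and 9. In data simulated for dKO against WT, with 13845 of 14045 genes unchanged, 2 to 4% of 2-fold changes were called. That share does not carry over to the deposited data, where far more genes were called. A member that did not pass in that comparison was still not shown to be unchanged.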
